A study of Mus musculus with 18 samples.

Results

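Small interfering RNA against Foxm1 was compared with a negative control siRNA in unstimulated mouse neonatal ventricular cardiac fibroblasts, and every gene with a mean of at least 1 FPKM (a fragment count corrected for gene length and library size) over these 6 libraries was followed. That rule kept 11246 of 18264 genes and 6 of 18 libraries, 3 of si-Foxm1 and 3 of si-NC. The gene just inside the limit was Fam169b, with a mean of 1.001 FPKM, and the gene just outside was Slc7a4, with 0.999 FPKM. The comparison asks what differs between cells with the Foxm1 siRNA and cells with the control siRNA, without angiotensin II. With only this siRNA label, effects of lower Foxm1 and other effects of the siRNA cannot be told apart. Other libraries of the same cell type were used beside it: si-Foxm1+Ang-II (the siRNA together with angiotensin II), Ang-II (the hormone), OE-Foxm1 (overexpressed Foxm1) and OE-NC (its control), 3 libraries each. All groups carry the same cell type label, and no strain, age in days, siRNA sequence, dose, time or overexpression vector is given. Whether Ang-II cells also received a control siRNA is not stated, nor whether the replicates were separate cultures, so p-values measure the spread between these libraries, which may be technical.

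Foxm1 is a forkhead transcription factor of dividing cells. It is recruited by the MuvB complex and B-Myb to promoters of mitotic genes, many of which carry a short element called the cell cycle genes homology region (CHR). The same MuvB core joins pocket proteins and E2F factors in a repressor complex in resting cells. In the heart, Foxm1 is best known for its part in the growth of fetal and newborn muscle and non-muscle cells.

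The mitotic list was read against that element. Promoter sequences of RefSeq (GRCm38.p6, from 250 bases before to 50 after the start site) were matched by symbol, and the CHR was searched as TTTGAA on both strands. It occurred in 20 of the 30 mitotic target genes that had a promoter sequence (66.7%), against 14.02% of 9032 tested genes with one. The windows below show it in genes whose values are given further on. They are read on the strand of the gene, with the CHR letters in capitals. Top2a has another match, not shown, on the opposite strand at position -23 from the start site, beside -179 for the one shown. Plk1 lies at chr7:122159453-122159482 (plus strand), Cdc20 at chr4:118437344-118437373 (minus), Bub1b at chr2:118598239-118598260 (plus), Top2a at chr11:99024351-99024380 (minus) and Cenpf at chr1:189688067-189688096 (minus).
Plk1: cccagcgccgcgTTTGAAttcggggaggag
Cdc20: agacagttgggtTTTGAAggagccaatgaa
Bub1b: agagacgttaaaTTTGAAactt
Top2a: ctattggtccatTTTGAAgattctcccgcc
Cenpf: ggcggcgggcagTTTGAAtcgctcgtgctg

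A second element is shown because targets of the oxidative stress factor NRF2 were among the genes that rose. The antioxidant response element (ARE) was searched as TGACNNNGC on both strands. It occurred in 8 of 18 NRF2 target genes with a promoter sequence (44.4%), against 17.1% of the 9032 genes. Srxn1 (chr2:152105542-152105570, plus strand) and Gclm (chr3:122245413-122245441, plus) carry it on the opposite strand, so that the capitals show its reverse complement, and Me1 (chr9:86695902-86695930, minus) carries it on the strand of the gene. A match of letters is a description of the window and not a binding site. The shares of both elements follow from the RefSeq sequences and the choice of the lists, and are not results of these libraries.
Srxn1: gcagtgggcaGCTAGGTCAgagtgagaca
Gclm: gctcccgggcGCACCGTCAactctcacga
Me1: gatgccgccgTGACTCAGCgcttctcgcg

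The 6 libraries held 18463370 to 19012353 counted fragments, and 15532 to 15734 genes were above 0 in each. A count of 3 fragments in a gene of 1 kb corresponded to 0.158 to 0.162 FPKM. Between libraries of 1 group, the chi-square per gene averaged 1.90 to 2.88, where counting error alone gives 1, so none agreed within sampling noise. This does not show whether they were separate cultures. Log2 fold changes are limma estimates from log2(FPKM + 1) and are given ± 1 standard error; they understate changes of genes at low FPKM. The cells carried fibroblast markers (Col1a1, Dcn, Pdgfra and 8 others), which summed to 4295 to 4522 FPKM in si-Foxm1 and 4686 to 4891 FPKM in si-NC. Cardiomyocyte markers were abundant too, with sums of 5116 to 5498 FPKM in si-Foxm1 and 10787 to 11662 FPKM in si-NC, and no sort that would remove cardiomyocytes is named.

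Foxm1 itself had 6.06, 5.13 and 6.71 FPKM in si-Foxm1, against 10.4, 9.64 and 10.3 FPKM in si-NC. All 3 si-Foxm1 libraries lay below all 3 si-NC libraries. The mean was 5.97 ± 0.79 FPKM in si-Foxm1 and 10.1 ± 0.41 FPKM in si-NC (SD, n = 3 each; two-sided exact permutation p = 0.1, the smallest that 3 against 3 allows), so that 59.0% of the control level remained. The log2 fold change was -0.68 ± 0.10 (adjusted p = 4.34e-05).

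Many genes moved by small amounts. Of the 11246 genes, 5452 were called higher (48.5%) and 1936 lower (17.2%) at an adjusted p under 0.05. The log2 fold changes of 90% of genes lay between -0.38 and 0.50, with a median of 0.11. Changes of at least 2-fold on this scale were called in 51 genes higher (0.453%) and 45 genes lower (0.4%). The si-Foxm1 libraries all lay above the si-NC libraries in 5830 genes (51.8%) and all below in 2157 (19.2%).

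The balance of directions rests on how libraries are scaled. Median-of-ratios scaling, which sets the median log2 fold change to 0.00, gave 2975 genes higher (26.5%) and 3290 lower (29.3%). Quantile normalization gave 3447 higher and 2988 lower. Under the deposited values and both scalings alike, 2937 genes were higher (26.1%) and 1918 lower (17.1%). List counts are therefore given for the deposited values and, after them, for the median-of-ratios values. The shares of all genes to set beside them are 48.5% higher and 17.2% lower, or 26.5% and 29.3% after scaling. Leaving the cardiac muscle lists out of the library totals, an alternative chosen after seeing the data, gave 4910 higher and 2189 lower.

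**Figure D1:**
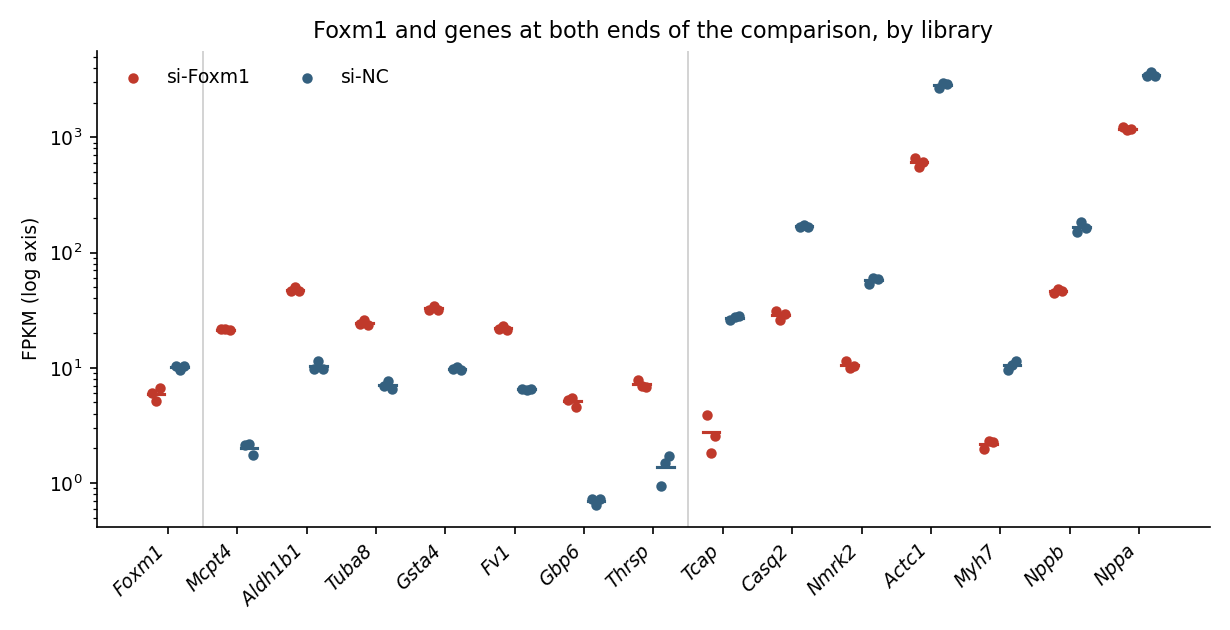
FPKM on a log axis in each of the 3 si-Foxm1 libraries (red) and the 3 si-NC libraries (blue), with a bar at the mean, for Foxm1, 7 of the genes that rose the furthest and 7 of those that fell the furthest. The groups do not overlap for any of these genes; Foxm1 stands at 5.97 FPKM in si-Foxm1 and 10.1 FPKM in si-NC, a narrower gap than that of the genes beside it.

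The 15 genes that rose the furthest included the protease gene Mcpt4, the aldehyde dehydrogenase gene Aldh1b1, the glutathione transferase genes Gsta1, Gsta2 and Gsta4 and the tubulin gene Tuba8. Mcpt4, a serine protease gene best known from connective tissue mast cells, had 21.6, 21.5 and 21.4 FPKM in si-Foxm1, against 2.13, 2.18 and 1.76 FPKM in si-NC. Its log2 fold change of 2.90 ± 0.07 (adjusted p = 2.95e-12) was the highest of all tested genes on the log2(FPKM + 1) scale. Limma with voom on recovered fragment counts gave higher values for Hsd3b1 (6.24), Gsta2 (4.29) and Gsta1 (3.64) than for Mcpt4 (3.40). Other defining mast cell genes did not stand beside it: Tpsb2 and Ms4a2 were at 0 in all 6 libraries, Cma1, Cpa3 and Hdc averaged under 0.1 FPKM, and Kit had 4.12, 4.41 and 4.04 FPKM in si-Foxm1, against 3.69, 3.68 and 3.76 FPKM in si-NC.

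Aldh1b1, a mitochondrial aldehyde dehydrogenase gene, had 46.1, 50.1 and 46.0 FPKM in si-Foxm1, against 9.69, 11.4 and 9.74 FPKM in si-NC (log2 fold change 2.10 ± 0.06, adjusted p = 7.39e-12). No si-Foxm1 library came near the control range. Aldehyde dehydrogenase genes as a list did not move with it: of 15 tested, Aldh1b1 included, 8 were higher and 3 lower (4 and 3 after scaling), with a median of 0.11, the same as that of all genes. Aldh6a1, an enzyme of valine breakdown, had 8.33, 8.34 and 7.73 FPKM in si-Foxm1, against 14.04, 15.04 and 14.8 FPKM in si-NC.

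The glutathione transferase genes among these 15 are of the alpha class, whose enzymes conjugate products of lipid peroxidation. Gsta4 had 31.8, 34.4 and 32.0 FPKM in si-Foxm1, against 9.67, 10.2 and 9.66 FPKM in si-NC (1.64 ± 0.05, adjusted p = 4.21e-11). Gsta2 had 6.17, 7.03 and 6.46 FPKM in si-Foxm1, against 0.783, 0.163 and 0.218 FPKM in si-NC, and Gsta1 had 2.87, 3.92 and 1.99 FPKM in si-Foxm1, against 0.440, 0.0611 and 0.246 FPKM in si-NC. Gsta1 and Gsta2 are close copies whose reads may be shared, so the split between them is uncertain.

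The alpha-tubulin gene Tuba8 had 23.8, 25.9 and 23.4 FPKM in si-Foxm1, against 6.98, 7.60 and 6.54 FPKM in si-NC (1.66 ± 0.05, adjusted p = 2.22e-11). Its relative Tuba4a had 50.5, 55.1 and 50.02 FPKM in si-Foxm1, against 20.5, 20.7 and 20.8 FPKM in si-NC. Tuba1a, an abundant alpha-tubulin of young cells, went the other way, with 412, 401 and 448 FPKM in si-Foxm1, against 580, 596 and 583 FPKM in si-NC. Of 14 tubulin genes, 9 were higher and 2 lower (6 and 3 after scaling), or 64.3% higher, against 48.5% of all genes.

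The retrovirus restriction gene Fv1 had 21.9, 22.9 and 21.4 FPKM in si-Foxm1, against 6.55, 6.40 and 6.51 FPKM in si-NC (1.62 ± 0.05). Gbp6, a guanylate-binding GTPase gene inducible by interferon gamma, had 5.29, 5.42 and 4.58 FPKM in si-Foxm1, against 0.722, 0.645 and 0.727 FPKM in si-NC (1.84 ± 0.07). Both were separated from the control range by a wide gap. The interferon-stimulated list as a whole did not follow: 5 of its 20 tested genes were higher and 2 lower (2 and 3 after scaling), and Ifit3 had 4.28, 4.16 and 3.87 FPKM in si-Foxm1, against 6.19, 7.35 and 7.19 FPKM in si-NC.

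Thrsp, a regulator of fatty acid synthesis, rose by 1.79 ± 0.14 on the log2 scale, and Rai2, a retinoic acid-induced gene, by 1.61 ± 0.08. The remaining genes of the highest 15 were Tmem116 (1.70), Hsd3b1 (1.60), which makes steroid hormones, Gm36028 (1.51), the kinase gene Sbk1 (1.495) and the Ras-like GTPase gene Rasl10a (1.49). Hsd3b1 was close to 0 in the control, with 0.0271, 0 and 0.0264 FPKM in si-NC, and had 1.77, 2.11 and 2.40 FPKM in si-Foxm1. Each of the 15 was also called higher after scaling, but they were picked from these same libraries, so this is no separate support. Gsta1, Gsta2, Gbp6, Hsd3b1, Gm36028 and Rasl10a averaged under 1 FPKM in si-NC and passed the expression limit through si-Foxm1.

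Heart muscle genes were among those that fell the furthest. Tcap, which caps titin at the sarcomere boundary, had 3.92, 1.81 and 2.54 FPKM in si-Foxm1, against 25.9, 27.4 and 28.3 FPKM in si-NC (-2.95 ± 0.15, adjusted p = 2.25e-09). Actc1, the cardiac alpha-actin gene, had 658, 550 and 608 FPKM in si-Foxm1, against 2669, 2929 and 2920 FPKM in si-NC (-2.23 ± 0.05, adjusted p = 4.42e-12). The groups were far apart for both. In a bulk library, fewer heart muscle cells and less of these RNAs per muscle cell cannot be told apart.

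Sarcomere genes did not fall evenly. Of 28 tested, 18 were lower and 4 higher (22 and 3 after scaling), with a median of -0.42. Myh7, the slow myosin heavy chain, had 1.99, 2.33 and 2.27 FPKM in si-Foxm1, against 9.65, 10.5 and 11.4 FPKM in si-NC, whereas the faster chain Myh6 had 848, 730 and 736 FPKM in si-Foxm1, against 1496, 1673 and 1684 FPKM in si-NC. Certain thin filament genes moved little: Tnni3, the cardiac inhibitory troponin, had 508, 523 and 471 FPKM in si-Foxm1, against 489, 531 and 494 FPKM in si-NC, and its groups overlapped (-0.01 without a call, and called lower at -0.14 after scaling). Tnnt2, the cardiac tropomyosin-binding troponin, had a log2 fold change of -0.18 ± 0.03, against -2.23 for Actc1. Acta1, the skeletal actin gene, was higher, with 3.73, 3.65 and 3.60 FPKM in si-Foxm1, against 1.79, 1.87 and 1.48 FPKM in si-NC, although actin genes share sequence and reads may be split between them. The list took 1.91, 1.77 and 1.74% of fragments in si-Foxm1, against 2.92, 3.1996 and 3.18% in si-NC.

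Calcium handling genes showed the same spread. Casq2, the calcium store protein of cardiac sarcoplasmic reticulum, had 30.8, 25.8 and 29.4 FPKM in si-Foxm1, against 165, 174 and 167 FPKM in si-NC (-2.52 ± 0.07, adjusted p = 7.39e-12). Ryr2, the release channel, fell by 1.18 ± 0.06 and Atp2a2, the reuptake pump, by 1.09 ± 0.04. Pln, the inhibitor of that pump, had 659, 642 and 641 FPKM in si-Foxm1, against 554, 581 and 578 FPKM in si-NC. Its log2 fold change of 0.18 ± 0.03 was 0.05 and not called after scaling, but 0.27 and called with quantile normalization. Of 17 such genes, 9 were lower and 5 higher (11 and 1 after scaling).

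Cardiac peptides fell, while cardiac transcription factors moved in both directions. Nppb, the B-type natriuretic peptide gene, had 44.7, 48.0 and 46.5 FPKM in si-Foxm1, against 150, 185 and 163 FPKM in si-NC (-1.81 ± 0.09). Nppa had 1239, 1160 and 1173 FPKM in si-Foxm1, against 3386, 3655 and 3377 FPKM in si-NC. Among Iroquois homeobox genes, Irx3 had 5.92, 5.51 and 6.01 FPKM in si-Foxm1, against 21.0, 22.2 and 23.3 FPKM in si-NC (-1.77 ± 0.05), whereas Irx4, a ventricular factor, had 17.01, 17.2 and 15.4 FPKM in si-Foxm1, against 6.61, 6.84 and 7.27 FPKM in si-NC (1.15 ± 0.05). Gata4, a factor of heart muscle and fibroblasts, had a log2 fold change of 0.04 that was not called (adjusted p = 0.24) and was called lower, at -0.08, after scaling. Of the 13 tested, 7 were lower and 4 higher (9 and 2 after scaling).

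The other genes of the lowest 15 were the muscle nicotinamide riboside kinase gene Nmrk2 (-2.34), the skeletal calsequestrin gene Casq1 (-2.26), the water channel gene Aqp4 (-2.03), the cardiac growth factor gene Bmp10 (-1.63), the muscle gene Sh3bgr (-1.60), the respiratory chain gene Ndufa8 (-1.53), the cardiac muscarinic receptor gene Chrm2 (-1.501) and the matrix proteoglycan gene Podn (-1.48). Ndufa8, a subunit of respiratory complex I, had 37.8, 39.5 and 39.0 FPKM in si-Foxm1, against 112, 120 and 109 FPKM in si-NC. Podn is not a muscle gene, and had 3.30, 3.13 and 2.87 FPKM in si-Foxm1, against 10.2, 10.6 and 10.4 FPKM in si-NC.

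Macrophage genes fell together. Of 21 tested, 20 were lower and 0 higher, before and after scaling, with a median of -0.58. Pf4 was the exception, at 0.23 without a call (adjusted p = 0.061). Ctss, a lysosomal protease of antigen presentation, had 30.8, 25.1 and 27.8 FPKM in si-Foxm1, against 57.5, 59.9 and 60.7 FPKM in si-NC (-1.07 ± 0.06). C1qc, a chain of complement C1q, had 3.60, 2.15 and 2.62 FPKM in si-Foxm1, against 5.99, 6.38 and 6.27 FPKM in si-NC. In si-Foxm1 the first library was the highest for both, yet below every control. The macrophage marker sum was 133 to 168 FPKM in si-Foxm1, against 265 to 272 FPKM in si-NC, with 9 of 9 tested markers lower.

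Endothelial genes were mostly higher, with 12 of 17 higher and 2 lower (9 and 3 after scaling). The share higher was 70.6%, against 48.5% of all genes. Cdh5, the endothelial cadherin, had 22.4, 24.6 and 21.5 FPKM in si-Foxm1, against 14.2, 16.9 and 15.95 FPKM in si-NC. The tight junction gene Cldn5 had 1.71, 1.89 and 1.96 FPKM in si-Foxm1, against 0.459, 0.854 and 0.859 FPKM in si-NC, while Flt1, a VEGF receptor, fell by 0.23 ± 0.06. The endothelial marker sum was 96.6 to 101 FPKM in si-Foxm1, against 80.6 to 88.1 FPKM in si-NC. Of its 8 tested markers, 4 were higher and 1 lower (3 and 2 after scaling), a share near the 48.5% of all genes. The smooth muscle and pericyte sum was 91.6 to 102 FPKM in si-Foxm1, against 121 to 129 FPKM in si-NC. Of its 6 tested markers, 0 were higher and 5 lower (0 and 6 after scaling). Haemoglobin and lymphocyte markers were at or near 0 in every library. Whether these shifts had a part in the changes of other groups was not tested.

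**Figure D2:**
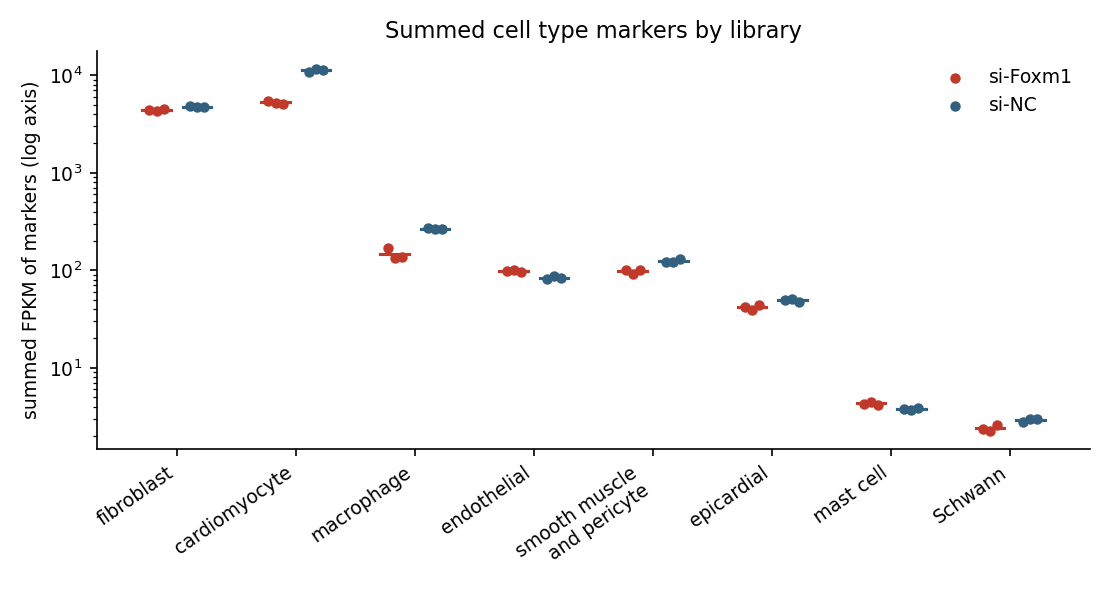
Summed FPKM of cell type markers on a log axis in each si-Foxm1 (red) and si-NC (blue) library, with a bar at the mean. Cardiomyocyte sums stand at 5116 to 5498 FPKM in si-Foxm1 and 10787 to 11662 FPKM in si-NC, and macrophage sums at 133 to 168 FPKM in si-Foxm1 and 265 to 272 FPKM in si-NC, while endothelial sums are higher in si-Foxm1.

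Mitotic target genes of Foxm1 and MuvB did not fall with Foxm1. All 36 listed genes passed the expression limit, and 22 were higher and 1 lower (14 and 3 after scaling). The share higher was 61.1%, against 48.5% of all genes, and the list median was 0.24, beside 0.11 for all genes. Bub1b, a spindle checkpoint kinase gene, had 10.8, 11.5 and 11.98 FPKM in si-Foxm1, against 6.92, 7.12 and 7.07 FPKM in si-NC (0.63 ± 0.07, adjusted p = 5.88e-06). Top2a, which untangles chromosomes, had 31.7, 32.7 and 36.7 FPKM in si-Foxm1, against 24.6, 22.2 and 23.2 FPKM in si-NC. Neither overlapped its control.

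Other mitotic genes had smaller values, with Plk1 and Ccnb1 chosen after their values were seen. Plk1, the kinase that drives mitotic entry, had 14.7, 15.3 and 17.5 FPKM in si-Foxm1, against 13.2, 12.7 and 12.6 FPKM in si-NC (0.28 ± 0.10, adjusted p = 0.026; 0.16 and not called after scaling). Cdc20, an activator of the anaphase complex, had 16.8, 16.5 and 18.9 FPKM in si-Foxm1, against 15.7, 15.2 and 15.1 FPKM in si-NC, at 0.17 before scaling and 0.05, without a call, after it. Ccnb1, the mitotic cyclin, had 18.3, 17.7 and 20.3 FPKM in si-Foxm1, against 18.9, 18.8 and 19.2 FPKM in si-NC, and its groups overlapped. The only member called lower was Cenpf, a kinetochore gene, with 2.50, 2.20 and 2.66 FPKM in si-Foxm1, against 2.92, 2.80 and 2.91 FPKM in si-NC (-0.17 ± 0.07, adjusted p = 0.0398). The CHR windows shown above belong to members at both ends, Bub1b and Cenpf. The 20 members with the element had a median of 0.22 (12 higher, 1 lower) and the 10 without it 0.32 (7 higher, 0 lower). Over all 9032 tested genes with a promoter sequence, the medians were 0.13 with the element and 0.11 without it.

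Genes of DNA replication were higher as a group. Of 30 tested, 25 were higher and 0 lower (22 and 2 after scaling), with a median of 0.38. Ccne1, the cyclin of the start of S phase, had 10.2, 9.97 and 10.6 FPKM in si-Foxm1, against 7.23, 6.62 and 7.03 FPKM in si-NC (0.50 ± 0.09). The helicase gene Mcm5 had 15.9, 17.04 and 17.3 FPKM in si-Foxm1, against 11.8, 11.6 and 11.4 FPKM in si-NC (0.49 ± 0.09). Rrm1 and Rrm2, the subunits of ribonucleotide reductase, were not called, at 0.02 and -0.06, and after scaling both were called lower (-0.10 and -0.19).

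Regulators upstream of these genes moved less. Of 18 genes of MuvB, E2F and pocket proteins, 10 were higher and 0 lower (6 and 1 after scaling). The share higher, 55.6%, was near the 48.5% of all genes. Mybl2, which encodes B-Myb, had 3.69, 3.89 and 4.24 FPKM in si-Foxm1, against 2.87, 2.98 and 2.98 FPKM in si-NC. E2f6, a repressive E2F gene, had the highest value, 0.42 ± 0.04. The inhibitor gene Cdkn1a (p21) had 83.4, 83.5 and 78.9 FPKM in si-Foxm1, against 109, 117 and 115 FPKM in si-NC (-0.47 ± 0.06), and among 23 p53 target genes 12 were lower and 5 higher (15 and 4 after scaling). Of 15 cyclin and inhibitor genes of G1, 5 were higher and 3 lower, against 0 and 7 after scaling, so this list has no direction that holds.

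Other forkhead genes changed little. Of 16 tested, 6 were higher and 3 lower (3 and 4 after scaling), with Foxo4 (0.37 ± 0.06) and Foxo3 (0.34 ± 0.06) at one end and Foxs1 (-0.30 ± 0.08) at the other. Genes of the RNA interference machinery, which siRNA uses, were followed as well. Ago2, the slicing argonaute, had 29.4, 29.3 and 28.2 FPKM in si-Foxm1, against 20.2, 20.1 and 20.8 FPKM in si-NC (0.49 ± 0.03, adjusted p = 2.52e-08). Dicer1 had 10.7, 10.9 and 11.0 FPKM in si-Foxm1, against 7.53, 7.59 and 7.997 FPKM in si-NC. Of 13 tested, 10 were higher and 0 lower (6 and 2 after scaling), or 76.9% higher, against 48.5% of all genes.

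**Figure D3:**
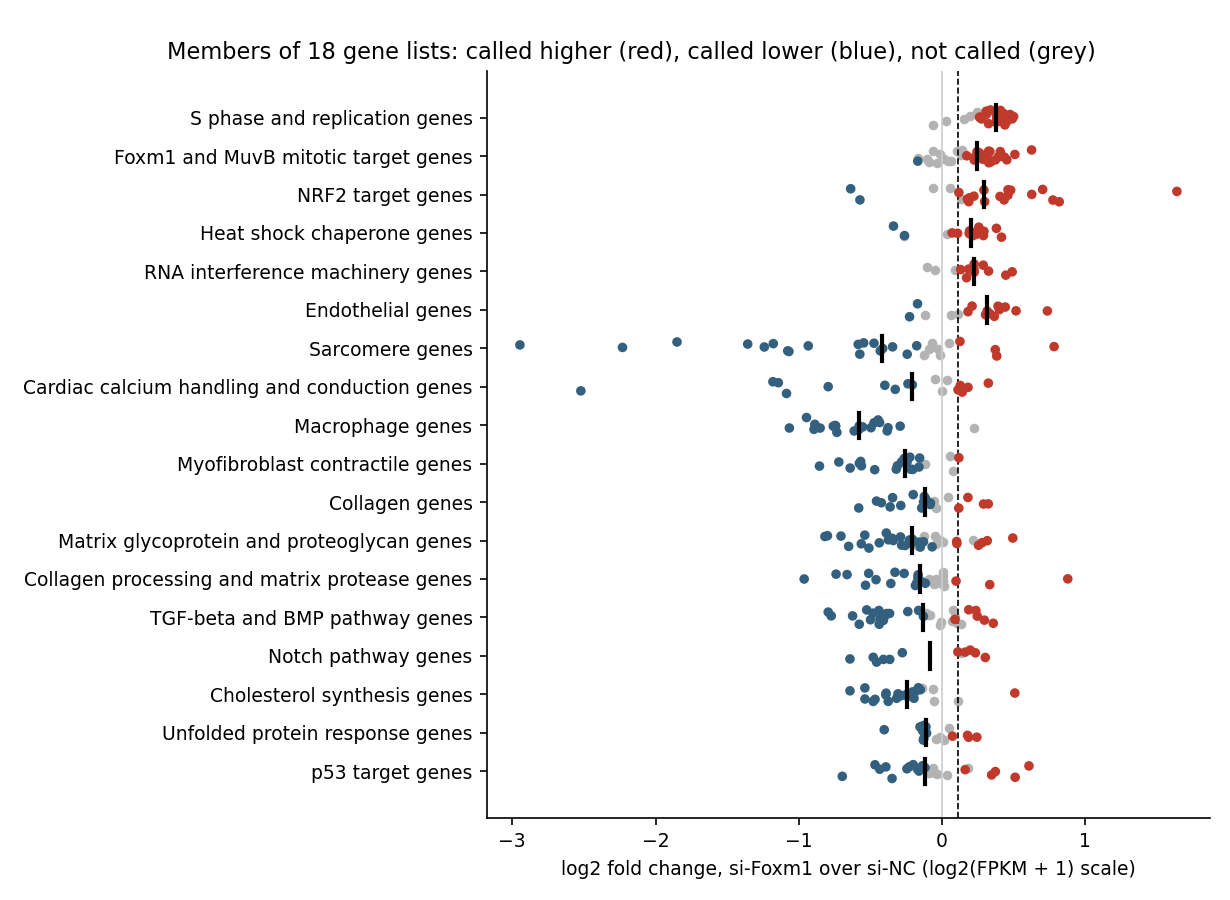
Log2 fold change of si-Foxm1 over si-NC for each tested member of 18 gene lists, with members called higher in red, called lower in blue and not called in grey. The black bar is the median of a list and the dashed line the median of all genes, 0.11; macrophage members lie to the left, with a median of -0.58, and S phase members to the right, with 0.38.

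NRF2 target genes, which supply glutathione, NADPH and thiol repair, were mostly higher. Of 22 tested, 17 were higher and 2 lower (13 and 3 after scaling), with a median of 0.29. Srxn1, sulfiredoxin, had 17.4, 21.4 and 18.5 FPKM in si-Foxm1, against 10.7, 10.4 and 9.94 FPKM in si-NC (0.82 ± 0.08, adjusted p = 8.46e-07). Hmox1, heme oxygenase, had 103, 110.5 and 99.0 FPKM in si-Foxm1, against 65.8, 63.2 and 61.6 FPKM in si-NC (0.70 ± 0.05). Gclm, the modifier subunit of glutathione synthesis, rose by 0.40 ± 0.05, and Me1, malic enzyme, by 0.48 ± 0.04. Nfe2l2, the NRF2 gene itself, had 53.3, 56.8 and 52.7 FPKM in si-Foxm1, against 39.7, 39.6 and 38.3 FPKM in si-NC.

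Exceptions in that list were Cat, catalase, with 28.4, 27.8 and 28.0 FPKM in si-Foxm1, against 42.2, 41.6 and 43.0 FPKM in si-NC, and Fth1, ferritin heavy chain (-0.64 ± 0.04), while Ftl1, ferritin light chain, rose by 0.77 ± 0.04. The ferritin genes have near-identical copies in the genome, so their counts are uncertain. The 8 members with the ARE letters had a median of 0.31 (7 higher, 0 lower) and the 10 without them 0.24 (6 higher, 2 lower). Over all 9032 tested genes with a promoter sequence, the medians were 0.10 with the ARE letters and 0.12 without them. Heat shock chaperone genes leaned the same way, with 12 of 16 higher and 2 lower (8 and 3 after scaling). The share higher was 75%, against 48.5% of all genes. Hspd1, the mitochondrial chaperonin, had 179, 188 and 178 FPKM in si-Foxm1, against 140, 144 and 134 FPKM in si-NC (0.38 ± 0.03).

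Cholesterol synthesis genes fell. Of 24 tested, 19 were lower and 1 higher (22 and 1 after scaling), with a median of -0.24. Sc5d, a late desaturase of the pathway, had 29.1, 27.1 and 29.3 FPKM in si-Foxm1, against 45.8, 44.6 and 44.7 FPKM in si-NC (-0.64 ± 0.04, adjusted p = 9.79e-09). Mvd, which makes isopentenyl units, had 29.8, 26.9 and 30.1 FPKM in si-Foxm1, against 43.8, 42.3 and 41.2 FPKM in si-NC. Hsd17b7 was the exception, with 39.5, 40.9 and 40.4 FPKM in si-Foxm1, against 27.9, 27.8 and 28.4 FPKM in si-NC. Of 19 fatty acid synthesis and storage genes, 8 were higher and 5 lower (8 and 9 after scaling). Acacb and Acaca, which make malonyl-CoA, rose by 0.53 ± 0.05 and 0.44 ± 0.04, whereas the next enzymes Fasn and Scd1 fell by 0.35 ± 0.04 and 0.40 ± 0.04.

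Contractile and matrix genes of fibroblasts were lower more often than higher. Of 22 myofibroblast contractile genes, 18 were lower and 1 higher (18 and 0 after scaling). Acta2, smooth muscle actin, had 578, 544 and 685 FPKM in si-Foxm1, against 939, 930.5 and 937 FPKM in si-NC. Csrp2, a LIM protein of smooth muscle, had 66.0, 62.8 and 66.4 FPKM in si-Foxm1, against 116, 123 and 116 FPKM in si-NC (-0.86 ± 0.05). Zyx, an adhesion protein gene, was the member called higher, at 0.12, and stood at -0.01 after scaling. Cardiomyocyte and smooth muscle marker sums were lower in the same libraries, and their part in these values was not tested.

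Collagen genes were lower more often than higher. Of 20 collagen genes, 13 were lower and 4 higher (14 and 2 after scaling), and the median was -0.12. Col1a1, the main fibrillar chain, had 674, 648 and 695 FPKM in si-Foxm1, against 756, 718 and 731 FPKM in si-NC (-0.13 ± 0.03). Col12a1, a fibril-associated collagen, fell by 0.58 ± 0.05, and Col7a1, of anchoring fibrils, rose by 0.32 ± 0.06. Lox, lysyl oxidase, had 225, 219 and 231 FPKM in si-Foxm1, against 421, 465 and 433 FPKM in si-NC (-0.96 ± 0.06, adjusted p = 1.10e-08). Of 35 glycoprotein and proteoglycan genes, 22 were lower and 6 higher (26 and 3 after scaling). Thbs1, thrombospondin, was among those that rose, with 384, 384 and 421 FPKM in si-Foxm1, against 290, 268 and 285 FPKM in si-NC. Ccn5, a matricellular gene, had 68.0, 63.8 and 80.4 FPKM in si-Foxm1, against 125, 128 and 122 FPKM in si-NC.

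Fibroblast identity genes had both directions. Of 17 tested, 8 were lower and 2 higher (13 and 1 after scaling). Pdgfra, the growth factor receptor of cardiac fibroblasts, had 11.7, 11.9 and 12.2 FPKM in si-Foxm1, against 8.18, 6.88 and 7.23 FPKM in si-NC (0.63 ± 0.11). The microfibril gene Mfap5 had 5.58, 5.02 and 5.68 FPKM in si-Foxm1, against 11.3, 11.5 and 9.70 FPKM in si-NC. Postn, periostin, was called higher at 0.10, stood at -0.03 after scaling and was called higher at 0.29 with quantile normalization.

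Signalling genes gave single members of larger size. In the TGF-beta and BMP list, 17 of 33 genes were lower and 6 higher (20 and 3 after scaling). The receptor Tgfbr1 rose by 0.36 ± 0.05, the BMP receptor Acvr1 fell by 0.77 ± 0.06, and the inhibitor Smad6 had 30.7, 28.9 and 31.1 FPKM in si-Foxm1, against 55.3, 51.8 and 52.4 FPKM in si-NC. Of 12 Notch pathway genes 6 were lower and 5 higher (6 and 0 after scaling), with the target Hes1 at -0.64 ± 0.04. Of 22 YAP and SRF targets 9 were lower and 7 higher (13 and 3 after scaling), and Ankrd1, also a cardiac stress gene, had 852, 838 and 868 FPKM in si-Foxm1, against 1472, 1574 and 1547 FPKM in si-NC. Fgf18, a secreted growth factor, had 1.39, 1.18 and 1.002 FPKM in si-Foxm1, against 4.10, 4.18 and 4.75 FPKM in si-NC (-1.29 ± 0.09).

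Genes of angiotensin and Gq signalling moved in both directions, and those of the receptor, the precursor and the converting enzyme were among the higher ones. Agtr1a, the main angiotensin receptor, had 2.40, 2.02 and 1.97 FPKM in si-Foxm1, against 0.577, 0.689 and 0.801 FPKM in si-NC (0.89 ± 0.08, adjusted p = 3.16e-07). Agt, which encodes the precursor of angiotensin, had 3.59, 3.63 and 3.98 FPKM in si-Foxm1, against 1.51, 1.74 and 2.05 FPKM in si-NC. Ace, the converting enzyme, had 16.2, 17.6 and 16.3 FPKM in si-Foxm1, against 11.3, 10.6 and 10.03 FPKM in si-NC. Rcan1, a calcineurin target and inhibitor, went the other way, with 17.1, 17.1 and 15.8 FPKM in si-Foxm1, against 32.8, 36.6 and 33.6 FPKM in si-NC (-0.999 ± 0.06). Of the 13 tested genes of angiotensin and Gq signalling, 5 were higher and 3 lower (4 and 6 after scaling).

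Under angiotensin II, Foxm1 had 3.55, 3.36 and 3.03 FPKM in si-Foxm1+Ang-II, against 4.23, 4.03 and 5.65 FPKM in Ang-II. The groups did not overlap, 71.5% of the Ang-II mean remained, and the log2 fold change was -0.38 ± 0.10, beside -0.68 ± 0.10 without the hormone (difference -0.30 ± 0.14, adjusted p = 0.347). The same siRNA under angiotensin II, in other libraries of the same fit, called 4939 of these genes higher (43.9%) and 1951 lower (17.3%). Of the 5452 genes called higher without the hormone, 4386 were also higher with it, which is 80.4% of the first list and 88.8% of the second. Of the 1936 called lower, 1556 were also lower, or 80.4% and 79.8%. All 51 and all 45 genes past 2-fold were called in the same direction with the hormone. With the hormone, Mcpt4 stood at 2.50, Tcap at -2.78 and Actc1 at -2.33.

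The siRNA effects without and with angiotensin II differed in 98 genes by the limma interaction contrast (0.871%), 57 with a higher and 41 with a lower value without the hormone. Serpina3n, an acute phase protease inhibitor gene, had 43.1, 41.4 and 40.1 FPKM in si-Foxm1, against 31.3, 27.7 and 31.7 FPKM in si-NC, while it had 27.3, 25.1 and 30.7 FPKM in si-Foxm1+Ang-II, against 43.7, 40.9 and 50.5 FPKM in Ang-II. Its effects thus had opposite signs (0.45 and -0.68, difference 1.13 ± 0.11, adjusted p = 0.000591). Tgfbi, a matrix adhesion gene inducible by TGF-beta, overlapped between si-Foxm1 and si-NC (0.07) and was lower with the siRNA under the hormone (-0.95).

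Krt18, a keratin gene, rose by 0.83 without the hormone and 0.14 with it (adjusted p of the difference 0.000771). Lox fell by 0.96 without it and 0.45 with it (adjusted p of the difference 0.0104). Of the mitotic list, 5 genes were called with a lower value without the hormone and 0 with a higher one, and the median difference was -0.33. Among the 5 was Ube2c, a ubiquitin enzyme of anaphase, at 0.06 without and 0.68 with the hormone. The mitotic list as a whole had 31 of 36 members higher and 0 lower under the hormone. The number of differing genes rested on single libraries: it was 38, 59 and 58 without si-NC replicates 1, 2 and 3, 39 and 56 without si-Foxm1 replicates 1 and 2, 36 and 54 without si-Foxm1+Ang-II replicates 2 and 3, and 196 without Ang-II replicate 3.

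**Figure D4:**
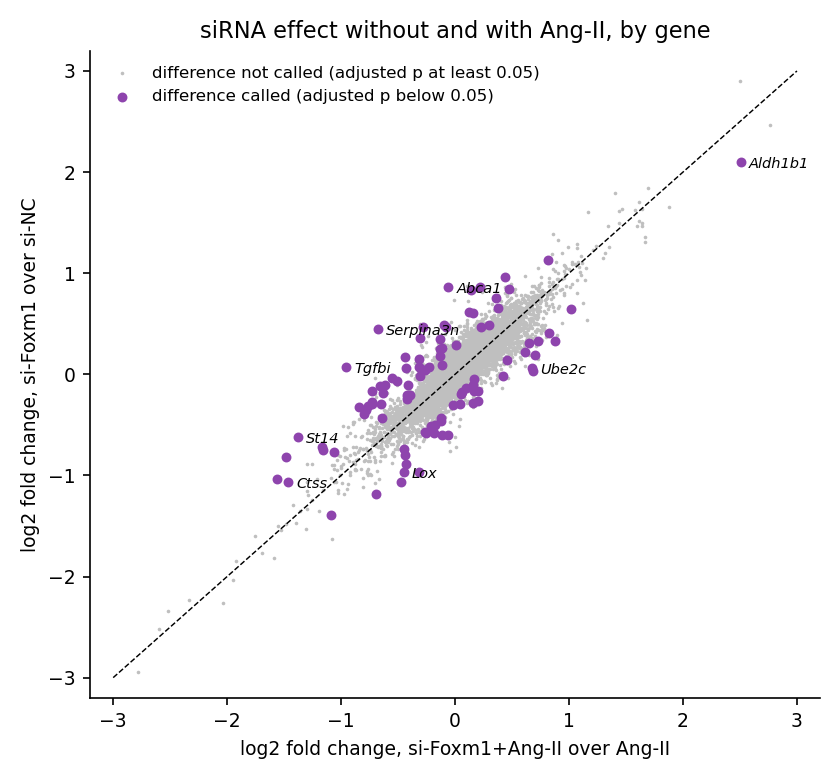
Log2 fold change of each tested gene for si-Foxm1 over si-NC (vertical) and for si-Foxm1+Ang-II over Ang-II (horizontal), with the 98 genes whose difference was called in purple and the line of equal values dashed. Aldh1b1 stands at 2.10 without and 2.51 with the hormone, and Serpina3n at 0.45 and -0.68.

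Foxm1 averaged 455 ± 48.7 FPKM in OE-Foxm1 and 16.6 ± 0.80 FPKM in OE-NC (SD, n = 3 each). Overexpression, in libraries with their own control, called 3065 of the 11246 genes higher (27.3%) and 3101 lower (27.6%). Of the 51 genes past 2-fold higher with the siRNA, 19 were lower and 6 higher in OE-Foxm1, and of the 45 past 2-fold lower, 15 were higher and 15 lower. Muscle genes at the bottom of the siRNA comparison moved in both directions there. Actc1 stood at 0.08 (not called), Casq2 at 0.12 and Tcap at 0.31. Myh7 stood at -0.79, Casq1 at -0.54 and Nmrk2 at -0.18, each called lower. Of the 36 mitotic target genes, 15 were lower and 5 higher in OE-Foxm1, with a median of -0.05. Certain lists had opposite counts. S phase genes were lower in 28 of 30 cases and higher in 0, NRF2 targets lower in 17 of 22 and higher in 0, heat shock genes lower in 14 of 16 and higher in 1, and cholesterol synthesis genes higher in 22 of 24 and lower in 0.

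The controls of the arms stood at different levels for these genes. Srxn1 had 17.8, 19.1 and 19.0 FPKM in OE-Foxm1, against 47.3, 49.9 and 46.6 FPKM in OE-NC, while si-NC held 9.94 to 10.7 FPKM. Hspd1 had 155, 171 and 158 FPKM in OE-Foxm1, against 301, 300 and 280 FPKM in OE-NC, with 134 to 144 FPKM in si-NC. Mvd had 43.0, 41.4 and 42.0 FPKM in OE-Foxm1, against 23.1, 22.5 and 25.9 FPKM in OE-NC, with 41.2 to 43.8 FPKM in si-NC. For Srxn1, Hspd1 and Mvd the OE-Foxm1 levels were thus nearer to si-NC than the OE-NC levels were. The part of the arm's control in these opposite counts was not tested.

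**Figure D5:**
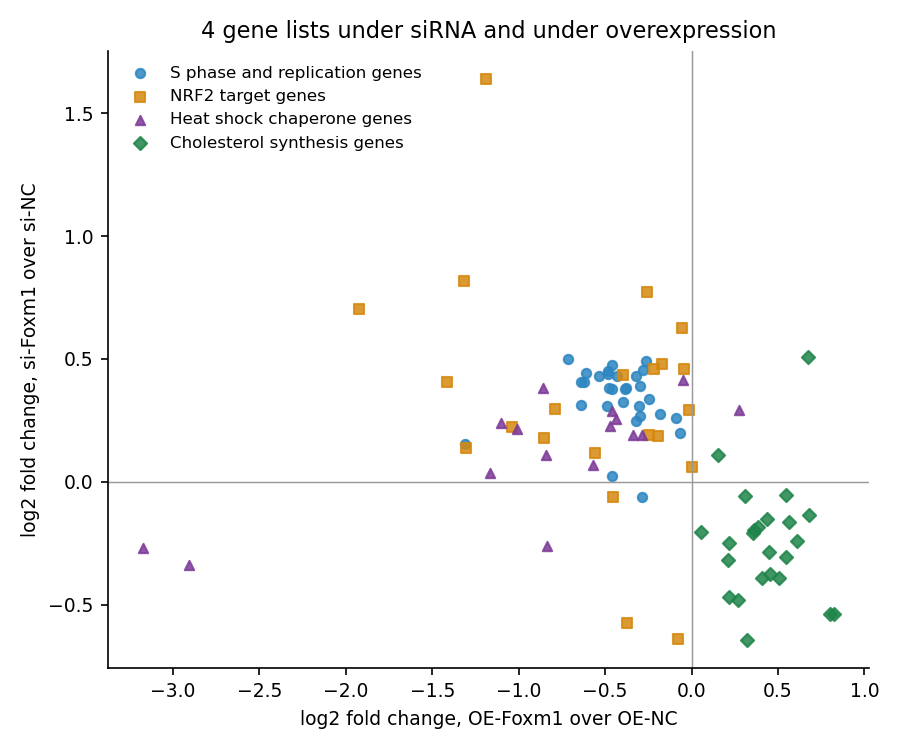
Log2 fold change of si-Foxm1 over si-NC (vertical) and of OE-Foxm1 over OE-NC (horizontal) for the tested members of 4 lists. S phase, NRF2 and heat shock members lie mostly at the upper left, with OE-Foxm1 medians of -0.41, -0.38 and -0.70, and cholesterol synthesis members mostly at the lower right, with 0.42.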

How the data were processed

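RNA was measured in mouse neonatal ventricular cardiac fibroblasts. The labels' protocols name the mirVana kit for RNA, an integrity number of at least 7 and an input of 4 μg for TruSeq stranded mRNA libraries. Tools named in the submitters' processing notes are fastp, HISAT2 and HTSeq, and the build is mm39. Their versions, settings and annotation were not given in the sources used here. FPKM per gene and library is what the authors deposited, already normalized by them. Groups and replicate numbers came from the sample titles.

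Whole fragment counts were recovered from the FPKM of all 17960 genes above 0, within 0.02 of a whole number, and gave the depth. The limit of 3 fragments covers counting error only; standard errors and SDs come from the spread between libraries. FPKM plus 1 was put on the log2 scale, and the 12 libraries of the siRNA arm entered 1 limma fit (limma 3.58.1, R 4.3.3) with a mean per group, eBayes and trend. The 6 overexpression libraries had a fit of their own. P-values were two-sided and adjusted by Benjamini-Hochberg over all 11246 genes, and genes under 0.05 were called. Limma with voom on the recovered counts (100% of these genes) called 7504 genes, against 7388. The fit was tested on simulated data. Motifs were searched with Python 3.11.15.

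Alternatives were a pseudocount of 0.1, a minimum of 0.1 FPKM or none, median-of-ratios scaling, quantile normalization, only the compared groups in the fit, voom on recovered counts, a replicate block and each library left out. The comparison, its members, the 44 gene lists and the tests were chosen with earlier results of these data known. Genes named were Foxm1, the 15 highest and 15 lowest called genes whose groups did not overlap, up to 4 called members of each list (2 highest, 2 lowest), and the 5 highest and 5 lowest differences between the siRNA effects. All other genes named in the text, such as Hmox1, Plk1, Tnni3, Acta2 and Ace, were chosen after their values were seen.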

Additional observations from a re-analysis of the deposited data

Results flagged for a closer look

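The following genes had siRNA effects that differed without and with angiotensin II by the limma interaction contrast, each given as the log2 difference of the effect without minus the effect with the hormone. Values above 0 were 1.13 for Serpina3n, 1.03 for Tgfbi, 0.93 for Abca1, 0.76 for St14, 0.74 for Tcim and 0.69 for Krt18. Smaller ones were 0.40 for Ctss, 0.21 for Lpl and 0.18 for Ctsb. Values below 0 were -0.65 for Scel, -0.65 for Apol9a, -0.61 for Ube2c, -0.59 for Trabd2b, -0.55 for Shcbp1 and -0.51 for Lox. Smaller ones were -0.40 for Aldh1b1, -0.34 for Ccn1, -0.33 for Col11a1 and -0.31 for Kit. Abca1, a cholesterol exporter gene, had 8.93, 10.2 and 6.57 FPKM in si-Foxm1, against 3.70, 4.28 and 4.59 FPKM in si-NC, while it had 2.35, 1.88 and 2.26 FPKM in si-Foxm1+Ang-II, against 2.19, 2.13 and 2.57 FPKM in Ang-II. St14, a membrane protease gene, had 1.80, 2.03 and 1.97 FPKM in si-Foxm1, against 3.44, 3.25 and 3.86 FPKM in si-NC, while it had 5.61, 5.05 and 5.71 FPKM in si-Foxm1+Ang-II, against 17.5, 15.6 and 14.5 FPKM in Ang-II.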

How the results depend on the processing

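Scaling moved the split of directions. For si-Foxm1 against si-NC, 2975 genes were higher and 3290 lower with median-of-ratios scaling, and 3447 and 2988 with quantile normalization. For si-Foxm1+Ang-II against Ang-II, median-of-ratios scaling gave 3098 and 3126. Both set the medians near 0, which accounts for the change in the split. The number of genes whose siRNA effects differed was 98, and became 59 with no filter and 234 by voom. Of these, the higher ones numbered 118 by voom, and the lower ones 20 with no filter, 64 with median-of-ratios scaling, 68 with quantile normalization and 116 by voom; the cause was not tested. With 1 library left out, the differing genes ranged from 36 to 196, the higher ones from 26 to 88 and the lower ones from 9 to 108. Foxm1 ranged from -0.75 to -0.59 in the same way, and the genes called with the siRNA from 6729 to 7005. Small effects changed sign. Postn was -0.03 and Zyx -0.01 with median-of-ratios scaling, but 0.29 and 0.07 with quantile normalization. With median-of-ratios scaling and quantile normalization, in that order, Tgfbi was -0.04 and -0.05, Apol9a -0.06 and -0.07, and Ube2c -0.06 and -0.01. Without 1 library, Apol9a ranged from -0.05 to 0.08 and Ube2c from -0.00 to 0.10. The correlation of same-numbered si-Foxm1 and si-NC libraries was -0.04, 0.15 and 0.02. Libraries with other numbers gave -0.12 to 0.11, so these values do not settle whether the numbers mark pairs. A replicate block called 7458 genes in si-Foxm1 against si-NC and 134 differing genes. Depth limits genes near 1 FPKM.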

Other observations

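Ndufa8 stood apart from the other genes named as subunits of respiratory complex I, a family looked at after its value was seen. Of 37 others tested, 26 were higher and 1 lower in si-Foxm1 (11 and 8 after median-of-ratios scaling), where 48.5% of all genes were higher and 17.2% lower. Their median log2 fold change was 0.16, beside 0.11 for all genes, with a range from -0.14 for Ndufa7 to 0.38 for Ndufs4, whereas Ndufa8 stood at -1.53. Ndufa8 also fell with the siRNA under angiotensin II, by 1.31 on the log2 scale, and stood at 0.09 in OE-Foxm1.

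Autophagy and lysosome genes held 1 member of larger size. Gabarapl1, an autophagosome gene, had 101, 113 and 98.1 FPKM in si-Foxm1, against 54.3, 52.2 and 51.7 FPKM in si-NC (0.96 ± 0.04, adjusted p = 8.97e-10). Of 28 tested, 8 were higher and 4 lower (6 and 15 after median-of-ratios scaling). Among glycolytic genes, Pgam1 rose by 0.66 ± 0.03 and Pkm fell by 0.36 ± 0.03, and of 21 tested 10 were higher and 7 lower (4 and 10 after scaling).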
